A study of Homo sapiens with 4 samples.

Results

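The 2 libraries whose titles end in 2 were set against the 2 whose titles end in 1, over all genes of the counts and whatever their virus label. Number 2 below means the control and the SIX2-labelled library numbered 2, and number 1 the control and the SIX2-labelled library numbered 1; where a pair of values is given, the control library comes first within each number. All 4 libraries of the series therefore took part, 2 in each set. Each held RNA from a culture labelled MKN-45, a human line of gastric cancer, infected with a control lentivirus or with one meant to overexpress the homeobox factor SIX2, and kept under puromycin for stable infection. No label says what the numbers stand for, nor that libraries came from separate cultures, so spreads and thresholds measure only how far apart the libraries of a number lie, control against SIX2-labelled, which may be technical. The contrast was chosen by the separation of these libraries in these same counts. Every difference and count between numbers below is thus a description of the 2 sets, was selected on the values it shows, and is no independent evidence of anything.

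SIX2 did not follow its virus label: the gene had 597 counts in the control and 605 in the SIX2-labelled library of number 2, against 369 and 379 in number 1. In CPM (a gene's counts scaled to 1000000 counts of the TMM-scaled library) that was 35.7 and 38.4 CPM in number 2, against 24.6 and 23 CPM in number 1, a log2 difference of 0.64 (SE 0.13). The SIX2-labelled libraries are therefore named by their label only. Library totals lay between 14792869 and 16777792 counts, 24396 to 25472 genes had at least 1 count, and mitochondrially encoded genes held 6.19% to 7.03% of the counts. The libraries of a number were not copies of each other: their squared deviation was 15.2 times counting noise in number 2 and 4.55 times in number 1. Within a number the SIX2-labelled minus control difference also ran with exonic gene length, with a Spearman correlation across 10979 genes of -0.48 in number 2 and 0.27 in number 1, whereas the difference between numbers had 0.02 (genes are not independent replicates). Taken pair by pair, the difference between numbers had 0.15 in the control pair and -0.12 in the SIX2-labelled pair, opposite in sign.

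Transcription factors bind DNA and set which genes a cell transcribes, and surface proteins let it adhere, sense ligands and move ions and nutrients. Signalling programs are usually read through their targets: NF-kB dimers, freed from inhibitor proteins, switch on cytokines and their own inhibitors; the ERK cascade induces its own phosphatase and Sprouty brakes; NRF2 switches on antioxidant enzymes; and SREBP factors switch on sterol and fatty acid synthesis. In epithelial tumour lines these programs accompany the junction proteins, keratins and growth factor receptors that mark the epithelial state.

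Promoter sequences of 3 inflammatory genes and 1 sterol regulator are shown first, because binding motifs of the factors behind the inflammatory and sterol lists described below are well known. Capitals mark matches on either strand to the kB motifs GGGANNNNCC or GGAANNTCC in IL6, CXCL8 and NFKBIA, and to the sterol element TCACNCCAC in SREBF2; N is any base, and the 2 kB patterns can overlap. The windows are RefSeq's on GRCh38.p14, 250 bases before to 50 after the start of the gene, in the gene's own direction: chr7:22726950-22727249 (plus strand), chr4:73740319-73740618 (plus), chr14:35404700-35404999 (minus) and chr22:41832855-41833154 (plus).
IL6: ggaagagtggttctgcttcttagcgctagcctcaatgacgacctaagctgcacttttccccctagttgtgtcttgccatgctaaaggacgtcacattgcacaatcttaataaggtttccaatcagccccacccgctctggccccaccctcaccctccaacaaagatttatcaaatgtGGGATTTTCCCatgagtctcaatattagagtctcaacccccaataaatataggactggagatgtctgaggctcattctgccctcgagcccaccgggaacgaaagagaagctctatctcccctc
CXCL8: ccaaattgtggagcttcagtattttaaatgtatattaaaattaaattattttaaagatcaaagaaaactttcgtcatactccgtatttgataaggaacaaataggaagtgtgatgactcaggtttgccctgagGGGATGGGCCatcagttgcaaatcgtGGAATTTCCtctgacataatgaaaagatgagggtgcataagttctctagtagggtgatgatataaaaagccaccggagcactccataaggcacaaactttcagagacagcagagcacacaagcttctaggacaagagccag
NFKBIA: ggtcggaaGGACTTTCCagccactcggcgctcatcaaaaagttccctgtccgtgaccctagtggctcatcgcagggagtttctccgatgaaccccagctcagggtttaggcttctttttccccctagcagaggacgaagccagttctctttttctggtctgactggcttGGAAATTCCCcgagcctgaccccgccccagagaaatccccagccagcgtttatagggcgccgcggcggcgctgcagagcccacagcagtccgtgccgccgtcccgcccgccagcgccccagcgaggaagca
SREBF2: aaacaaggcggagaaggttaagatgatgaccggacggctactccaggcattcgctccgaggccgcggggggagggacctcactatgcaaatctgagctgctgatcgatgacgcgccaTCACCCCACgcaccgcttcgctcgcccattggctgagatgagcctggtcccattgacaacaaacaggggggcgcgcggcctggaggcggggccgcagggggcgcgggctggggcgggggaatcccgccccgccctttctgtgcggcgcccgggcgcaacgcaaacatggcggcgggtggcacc

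Counted from the start of the gene, the kB matches began at -73 and -72 in IL6, at -117 and -91 in CXCL8 and at -242 and -81 in NFKBIA. The sterol element of SREBF2 began at -133. A kB match stood in 14 of the 19 tested inflammatory genes with a window (73.7%), against 33.3% of 10213 windows of tested protein-coding genes and 26.8% of all 27305 windows; it also stood in 9 of 18 sterol genes (50%). The sterol element stood in 1 of 18 sterol genes (5.56%), against 1.10% of the windows of tested genes and 1.15% of all windows. The AP-1 motif TGANTCA stood in 1 of 18 immediate early genes (5.56%) and 2 of 19 inflammatory genes (10.5%), against 4.62% of the windows of tested genes. A match is a run of letters and not a measured binding site. The inflammatory list is named for NF-kB, so a high kB share may follow from how its members were chosen. Whether NF-kB bound these promoters was not tested. SREBF2 is shown as the 1 sterol gene with a match, and NFKBIA was picked after its values were seen.

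Across all 16343 tested genes, 7151 were called between numbers (43.8%): 3622 were called higher in number 2 (22.2%) and 3529 lower (21.6%). A call here means an adjusted p under 0.05 in edgeR's quasi-likelihood test; at an absolute log2 difference of 1 or more, 1455 genes were higher and 1214 lower. These shares are the background for every count below. The control pair and the SIX2-labelled pair share no library, and their differences had a Pearson correlation of 0.862 and a Spearman correlation of 0.743 across tested genes, which are not independent replicates. All 7151 called genes differed in the same direction in both pairs, which the calls in part require. The median log2 difference of all tested genes was 0.01.

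**Figure D1:**
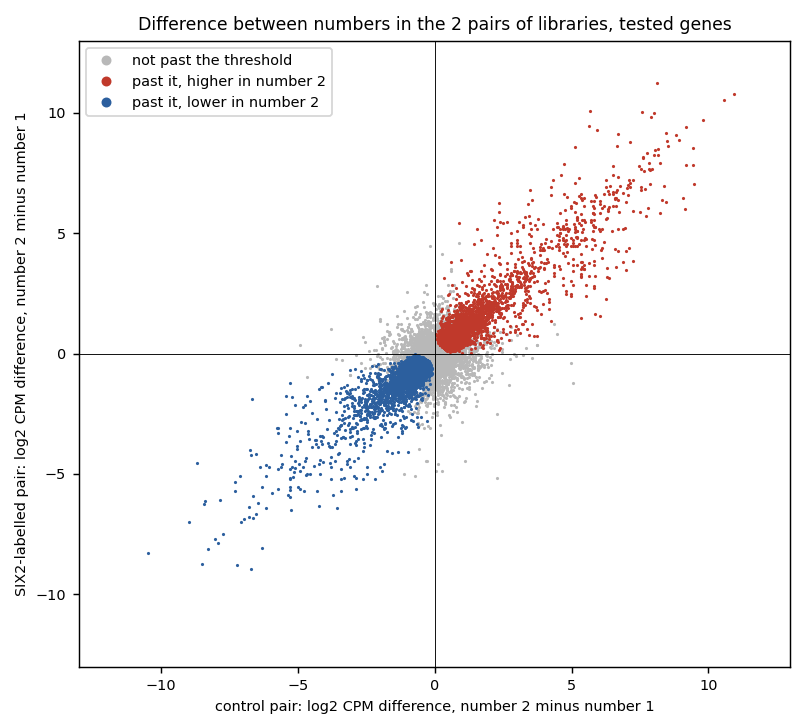
Log2 CPM difference, number 2 minus number 1, in the SIX2-labelled pair (vertical) against the control pair (horizontal); each point is 1 of 16343 tested genes. Red points are the 3622 genes called higher in number 2, blue the 3529 called lower and grey the rest; called genes lie in the upper right and lower left parts of the plot.

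The cells' labelled identity was read first from epithelial and gastric markers. MET, the receptor tyrosine kinase that MKN-45 cells are known to carry in extra copies, was abundant and close between the sets, at 246 and 220.3 CPM in number 2, against 223 and 244 CPM in number 1. Keratins of simple epithelium were the most abundant of the epithelial list: KRT8 stood at 2719 and 3549 CPM in number 2, against 1734 and 1707 CPM in number 1, a log2 difference of 0.86 (SE 0.13). Its partner KRT18 was at 1169 and 1538 CPM in number 2, against 807 and 764 CPM in number 1, a log2 difference of 0.79 (SE 0.13). CDH1, which encodes E-cadherin, had 5.32 and 8.05 CPM in number 2, against 21.97 and 20.4 CPM in number 1, a log2 difference of -1.67 (SE 0.20). EPCAM, an epithelial adhesion protein, was at 8.91 and 10.1 CPM in number 2, against 12.02 and 12.2 CPM in number 1, and was not called. EPCAM was called lower without the SIX2-labelled library of number 2, with a log2 difference of -0.44. The epithelial splicing factor ESRP1 had 0 counts in every library, and KRT19 had 2 or fewer. Over the whole list of epithelial adhesion and keratin genes, 6 of 28 tested members were called higher and 12 lower in number 2, with a median log2 difference of -0.55 (2 of the higher and 5 of the lower past 2-fold). The higher count there was 3 without the control library of number 1, and 3 without the SIX2-labelled one.

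Intestinal and gastric markers were sparse. CEACAM5, the carcinoembryonic antigen, had 0 counts in number 2, against 17 and 32 counts in number 1, and was at least 16.9-fold lower in number 2 against a floor of 3 counts per set. CDH17, the liver-intestine cadherin, had 1 count in number 2 and 151 in number 1, 156 times as much in number 1 (95% counting interval 27.6 to 6203). SOX2, CDX1 and CDX2, which set gastric and intestinal fate, had 0 counts in all 4 libraries. The gastric mucin MUC5AC was at 13.8 and 7.23 CPM in number 2, against 11.6 and 15.3 CPM in number 1, with overlapping sets, and PSCA, a stomach and prostate surface antigen, at 43.1 and 62.9 CPM in number 2, against 135 and 128 CPM in number 1, a log2 difference of -1.31 (SE 0.15). MUC5AC was called lower without the control library of number 2, at -0.88. Of the gastric list, 1 of 11 tested members were called higher and 5 lower in number 2, with a median log2 difference of -0.35. The one called higher was the endodermal factor GATA4, described with the transcription factors. Cells of either set thus held keratins and MET and lacked several defining epithelial, gastric and intestinal markers; a profile of MKN-45 from elsewhere was not used here.

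Markers of other cell types differed between the sets without a single direction. The fibroblast list summed to 1814 and 1831 CPM in number 2, against 1189 and 1163 CPM in number 1; 4 of its 9 tested members were called higher and 4 lower in number 2. COL1A1, a chain of collagen I, was at 279.5 and 274 CPM in number 2, against 54.1 and 56.9 CPM in number 1, a log2 difference of 2.32 (SE 0.11), while COL1A2, the other chain, had 1 count in all libraries together. DCN, a small matrix proteoglycan, was at 0.658 and 1.01 CPM in number 2, against 23.5 and 28.4 CPM in number 1, a log2 difference of -4.95 (SE 0.25). LUM, its relative, had 2 counts in number 2 and 1442 in number 1. PDGFRA had 0 counts throughout. Endothelial markers summed to 14.5 and 20.03 CPM in number 2, against 33.1 and 32.6 CPM in number 1, with KDR at 0. CDH5, an endothelial marker, leaned the other way, at 8.67 and 11.8 CPM in number 2, against 7.68 and 8.86 CPM in number 1. Its sets overlapped and it was not called, with a log2 difference of 0.30 (SE 0.21), or 0.52 without the control library of number 2. Blood and immune markers summed to 4.79 and 4.88 CPM in number 2, against 4.61 and 4.86 CPM in number 1, with PTPRC and CD3E at 0. Neural and neuroendocrine markers summed to 71.9 and 71.95 CPM in number 2, against 32.5 and 31.4 CPM in number 1, and muscle markers to 71.3 and 68.01 CPM in number 2, against 33.4 and 38.7 CPM in number 1. Of the neural list, 2 of 5 tested members were called higher and 0 lower in number 2. Its median was 1.00 in the control pair and 0.12 in the SIX2-labelled pair. The neural marker NCAM1, not tested, had 5 counts in number 2 and 12 in number 1. Of the muscle list, 3 of 4 tested members were called higher and 0 lower. CGA, the shared alpha chain of the glycoprotein hormones and a trophoblast marker, was at 754 and 984 CPM in number 2, against 2.07 and 2.12 CPM in number 1, a log2 difference of 8.69 (SE 0.20), while HAND1, a placental and heart factor, had 0 counts throughout. Over the trophoblast list 1 of 7 tested members was called higher and 3 lower in number 2, with a median log2 difference of -0.43, and its summed level was 1938 and 2359 CPM in number 2, against 1891 and 1812 CPM in number 1. In bulk RNA, fewer cells of a type and less RNA per cell cannot be told apart, and the part of other cells in the differences was not tested.

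Inflammatory targets had the lowest median of the 44 program lists. Of the NF-kB and inflammation list, 0 of 24 tested members were called higher and 22 lower in number 2, with a median log2 difference of -2.07, and 19 of the 22 lay past 2-fold. The interleukin IL6 had 1.61 and 3.296 CPM in number 2, against 62.6 and 63.4 CPM in number 1, a log2 difference of -4.69 (SE 0.21). CXCL8, a neutrophil chemokine, was at 0.478 and 1.46 CPM in number 2, against 12.6 and 13.9 CPM in number 1, a log2 difference of -3.78 (SE 0.34). In both genes every library of number 2 lay below every library of number 1. Sets also lay apart, in either direction, in 11805 of all 16343 tested genes. The chemokine CCL5 stood at 5.44 and 20.1 CPM in number 2, against 146 and 146 CPM in number 1, a log2 difference of -3.53 (SE 0.35), with a wide gap inside number 2. TNFAIP3, the deubiquitinase that restrains NF-kB, was at 16.8 and 20.7 CPM in number 2, against 109.5 and 113 CPM in number 1, a log2 difference of -2.57 (SE 0.13). NFKBIA, the inhibitor that NF-kB itself induces, had 77.2 and 81.96 CPM in number 2, against 115 and 123 CPM in number 1, a log2 difference of -0.58 (SE 0.11). TNFAIP2 was the most abundant member and close between sets, at 358 and 357 CPM in number 2, against 393 and 380.1 CPM in number 1. The list's median was -1.98 in the control pair and -1.84 in the SIX2-labelled pair.

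The subunit genes NFKB2, RELA and RELB were lower too. Other NF-kB subunit genes are not given singly here. NFKB2, which encodes the p100 precursor, was at 79.8 and 89.6 CPM in number 2, against 217 and 204 CPM in number 1, a log2 difference of -1.31 (SE 0.11). RELA had 88.2 and 96.2 CPM in number 2, against 179 and 174 CPM in number 1, a log2 difference of -0.94 (SE 0.11). RELB, which pairs with the NFKB2 product, had 4.79 and 5.58 CPM in number 2, against 27.3 and 24.1 CPM in number 1, a log2 difference of -2.31 (SE 0.17). In the NF-kB and NFAT family 7 of 9 tested genes were called lower and 1 higher in number 2. NFAT5, the osmotic stress factor, was called lower but with a wide spread inside number 2, at 168 and 83.2 CPM in number 2, against 199 and 229.5 CPM in number 1. DESeq2 did not call it, at -0.77.

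Interferon targets were mixed. Of the interferon-stimulated genes, 5 of 36 tested members were called higher and 17 lower in number 2, with a median log2 difference of -0.47; the higher count was 8 without the control library of number 2. RSAD2, which encodes the antiviral enzyme viperin, was at 0 and 0.507 CPM in number 2, against 12.4 and 12.7 CPM in number 1, and OAS2, an antiviral RNA sensor, at 2.81 and 5.07 CPM in number 2, against 29.1 and 33.4 CPM in number 1, a log2 difference of -2.99 (SE 0.22). IFI44L ran the other way, at 7.18 and 11.3 CPM in number 2, against 1.34 and 1.15 CPM in number 1, a log2 difference of 2.88 (SE 0.32). ISG15, a ubiquitin-like modifier, was not called: the control library of number 2 lay apart from the other 3, with 230.0 and 572 CPM in number 2, against 658 and 557 CPM in number 1. It was called lower without the SIX2-labelled library of number 2, at -1.40, without that of number 1, at -0.72, and with the virus label as a replicate block, at -0.74. The list's median was -0.69 in the control pair and -0.22 in the SIX2-labelled pair. Among MHC class I presentation genes, 1 of 17 tested members were called higher and 7 lower in number 2, with a median log2 difference of -0.15, and the lower count was 12 without the SIX2-labelled library of number 2, while the higher count was 4 without its control library and 0 without either library of number 1. The peptide transporter subunit TAP1 had 50.7 and 51.5 CPM in number 2, against 168 and 146 CPM in number 1, a log2 difference of -1.62 (SE 0.11). The class I light chain B2M, which overlapped between the sets, was at 1316 and 2063 CPM in number 2, against 1656 and 1692 CPM in number 1. B2M was called higher without the control library of number 2, at 0.32, and lower without its SIX2-labelled library, at -0.35.

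RNA of the genes listed as ERK output was lower in number 2 across most of the list. The activity of ERK itself was not tested. Of the ERK feedback and output genes, 1 of 20 tested members were called higher and 15 lower in number 2, with a median log2 difference of -1.41; 12 lay past 2-fold. SPRY4, a Sprouty inhibitor of receptor signalling, was at 0.777 and 0.951 CPM in number 2, against 28.4 and 29.7 CPM in number 1, a log2 difference of -5.06 (SE 0.22). SPRY2 was at 3.47 and 4.06 CPM in number 2, against 26.1 and 23.97 CPM in number 1, a log2 difference of -2.73 (SE 0.18). DUSP6, the ERK phosphatase, had 2.39 and 2.41 CPM in number 2, against 12.4 and 14.99 CPM in number 1, a log2 difference of -2.51 (SE 0.22). The ETS factors that ERK induces in many epithelial cells moved alike: ETV4 had 10.9 and 11.9 CPM in number 2, against 49.3 and 43.3 CPM in number 1, a log2 difference of -2.02 (SE 0.14). ETV5 had 5.14 and 4.82 CPM in number 2, against 24.6 and 26.9 CPM in number 1, a log2 difference of -2.37 (SE 0.17). Of the ETS family, 10 of 20 tested genes were called lower and 0 higher, and the lower count was 6 without the SIX2-labelled library of number 1. Receptors and ligands upstream were mixed. EGFR was at 169 and 139.5 CPM in number 2, against 396 and 439.5 CPM in number 1, a log2 difference of -1.44 (SE 0.12). ERBB3, its kinase-poor partner, was at 16.7 and 15.02 CPM in number 2, against 50.6 and 46.9 CPM in number 1, a log2 difference of -1.62 (SE 0.13). MET, given above, did not separate the sets. Among EGF family ligands, 6 of 9 tested members were called higher and 3 lower in number 2. Epiregulin, EREG, was at 0.718 and 1.01 CPM in number 2, against 83.5 and 87.2 CPM in number 1, a log2 difference of -6.62 (SE 0.19). Amphiregulin, AREG, was at 2.09 and 4.12 CPM in number 2, against 22.04 and 24.04 CPM in number 1, a log2 difference of -2.90 (SE 0.24). NRG4, a neuregulin, was at 34.5 and 31.8 CPM in number 2, against 15.4 and 18.3 CPM in number 1, a log2 difference of 0.98 (SE 0.14).

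Immediate early and YAP targets were lower in number 2 in most called members. Of the AP-1 and immediate early genes, 4 of 22 tested members were called higher and 12 lower in number 2, with a median log2 difference of -0.67; the higher count was 2 without the SIX2-labelled library of number 1. JUN had 17.9 and 21.1 CPM in number 2, against 102 and 87.6 CPM in number 1, a log2 difference of -2.28 (SE 0.13). Its partner FOSL1 had 8.85 and 8.18 CPM in number 2, against 56.97 and 54.99 CPM in number 1, a log2 difference of -2.71 (SE 0.14). FOS, the other AP-1 partner, ran the opposite way, at 23.3 and 32.3 CPM in number 2, against 10.3 and 11.3 CPM in number 1, a log2 difference of 1.36 (SE 0.18). MYC was at 155 and 137 CPM in number 2, against 236 and 236 CPM in number 1, a log2 difference of -0.70 (SE 0.11). Among YAP and TEAD targets, 1 of 22 tested members were called higher and 13 lower in number 2, with a median log2 difference of -0.54. CYR61, a matricellular protein, was at 21.6 and 24.5 CPM in number 2, against 121 and 119 CPM in number 1, a log2 difference of -2.38 (SE 0.12). CTGF, its relative, was at 2.39 and 3.11 CPM in number 2, against 8.88 and 8.31 CPM in number 1, a log2 difference of -1.64 (SE 0.25). MYOF, a membrane repair protein in the same list, was called higher, at 574 and 496 CPM in number 2, against 360.2 and 374 CPM in number 1, a log2 difference of 0.54 (SE 0.11). The call was lost without the control library of number 1, at 0.51. MYC and nucleolar targets followed, where 2 of 24 tested members were called higher and 16 lower in number 2, with a median log2 difference of -0.46; the lower count was 10 without the control library of number 1. ODC1, the first enzyme of polyamine synthesis, had 189 and 172 CPM in number 2, against 435 and 432 CPM in number 1, a log2 difference of -1.26 (SE 0.11), whereas LDHA, lactate dehydrogenase A, had 1519 and 1836 CPM in number 2, against 1113 and 1190 CPM in number 1, a log2 difference of 0.54 (SE 0.12). The call of LDHA was lost without the control library of number 1, at 0.49.

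Lipid synthesis stood higher in number 2. Of the sterol synthesis genes, 14 of 24 tested members were called higher and 2 lower in number 2, with a median log2 difference of 0.47; 5 were past 2-fold. INSIG1, the sterol sensor's anchor protein, was at 183 and 172 CPM in number 2, against 42.5 and 43.9 CPM in number 1, a log2 difference of 2.04 (SE 0.11). IDI1, an isomerase of the mevalonate pathway, was at 135 and 162 CPM in number 2, against 48.6 and 55.5 CPM in number 1, a log2 difference of 1.51 (SE 0.13). Both SREBP genes were called higher: SREBF1 had 373 and 353 CPM in number 2, against 135 and 130.4 CPM in number 1, a log2 difference of 1.45 (SE 0.11). SREBF2 had 276 and 242 CPM in number 2, against 206 and 199.6 CPM in number 1, a log2 difference of 0.35 (SE 0.11). SREBF2 was not called without the control library of number 1, at 0.37, or without its SIX2-labelled library, at 0.32. Among fatty acid synthesis and storage genes, 12 of 23 tested members were called higher and 6 lower in number 2, with a median log2 difference of 0.32; the lower count was 3 without the control library of number 1. SCD, the stearoyl desaturase, was at 1585 and 1337 CPM in number 2, against 429.7 and 463 CPM in number 1, a log2 difference of 1.71 (SE 0.12). FASN, the fatty acid synthase, was at 930.0 and 664 CPM in number 2, against 426 and 399 CPM in number 1, a log2 difference of 0.95 (SE 0.14). DGAT2, which makes triglycerides, and PLIN2, which coats lipid droplets, were lower: DGAT2 had 4.01 and 3.68 CPM in number 2, against 29.1 and 27.9 CPM in number 1, a log2 difference of -2.89 (SE 0.17). PLIN2 stood at 7.89 and 8.24 CPM in number 2, against 31.2 and 33.1 CPM in number 1, a log2 difference of -2.00 (SE 0.15). MLXIPL, the glucose-sensing lipogenic factor, was at 34.3 and 30.2 CPM in number 2, against 5.41 and 4.01 CPM in number 1, a log2 difference of 2.78 (SE 0.18).

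Antioxidant genes were mostly higher in number 2. Of the NRF2 targets, 20 of 27 tested members were called higher and 1 lower in number 2, with a median log2 difference of 0.74; 9 of the 20 were past 2-fold. AKR1C2, an aldo-keto reductase, was at 178 and 198 CPM in number 2, against 6.81 and 4.98 CPM in number 1, a log2 difference of 5.00 (SE 0.16). AKR1C1 was at 18.5 and 20.8 CPM in number 2, against 2.003 and 1.46 CPM in number 1, a log2 difference of 3.51 (SE 0.22); these 2 genes are near-identical and their reads may be split between them. SLC7A11, the cystine importer, had 246 and 187 CPM in number 2, against 84.8 and 87.5 CPM in number 1, a log2 difference of 1.33 (SE 0.13). GSR, glutathione reductase, had 144 and 136 CPM in number 2, against 57.6 and 56.3 CPM in number 1, a log2 difference of 1.29 (SE 0.11). The ferritin chains went opposite ways: FTL was at 1929 and 2023 CPM in number 2, against 1088 and 1032 CPM in number 1, a log2 difference of 0.90 (SE 0.11). FTH1 was at 924 and 775 CPM in number 2, against 1691 and 1272 CPM in number 1, a log2 difference of -0.80 (SE 0.14); both have many processed copies in the genome, so their counts are uncertain. In the wider glutathione and detoxification list, 10 of 22 tested members were called higher and 6 lower in number 2, with a median log2 difference of 0.28. GSTP1, the most abundant glutathione transferase there, was lower, at 374 and 445 CPM in number 2, against 874 and 796 CPM in number 1, a log2 difference of -1.03 (SE 0.12). ALDH3A1, an aldehyde dehydrogenase, was higher, at 29.5 and 32.5 CPM in number 2, against 3.07 and 2.25 CPM in number 1, a log2 difference of 3.55 (SE 0.19).

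Glycolysis genes were higher, with modest sizes. 13 of 19 tested members were called higher and 2 lower in number 2, with a median log2 difference of 0.50. PKM, pyruvate kinase, was at 2498 and 2625 CPM in number 2, against 1376 and 1318 CPM in number 1, a log2 difference of 0.93 (SE 0.11). GAPDH was at 2808 and 3033 CPM in number 2, against 1727 and 1749 CPM in number 1, a log2 difference of 0.75 (SE 0.11). HK2, a hexokinase, was called lower, at 44.97 and 51.8 CPM in number 2, against 90.6 and 89.8 CPM in number 1, a log2 difference of -0.90 (SE 0.11). The hypoxia list had no single direction, with 8 of 22 tested members called higher and 8 lower, or 4 lower without the control library of number 1. The carbonic anhydrase CA9 was at 10.9 and 12.5 CPM in number 2, against 3.54 and 1.76 CPM in number 1, a log2 difference of 2.15 (SE 0.28). ANGPTL4, an inhibitor of lipoprotein lipase, was at 4.54 and 3.93 CPM in number 2, against 47.2 and 43.8 CPM in number 1, a log2 difference of -3.42 (SE 0.16). PHGDH, the first enzyme of serine synthesis, was at 218 and 201 CPM in number 2, against 36 and 34.6 CPM in number 1, a log2 difference of 2.57 (SE 0.11), in an ATF4 list with 7 members called higher and 6 lower of 25 tested.

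Cell cycle genes were higher in number 2 by small amounts. Of the DNA replication and G1/S genes, 21 of 38 tested members were called higher and 0 lower in number 2, with a median log2 difference of 0.37; only 1 was past 2-fold, POLA1, at 199 and 176 CPM in number 2, against 88.9 and 98.02 CPM in number 1. That count was 10 without the control library of number 1 and 11 without its SIX2-labelled library, against 25 without the control library of number 2. MCM6, a subunit of the replicative helicase, had 236 and 231 CPM in number 2, against 122 and 133 CPM in number 1, a log2 difference of 0.88 (SE 0.11). Of the G2/M genes, 17 of 36 tested members were called higher and 2 lower in number 2, with a median log2 difference of 0.27, with a count of 11 higher without the control library of number 1. TOP2A, topoisomerase II alpha, was at 789 and 708 CPM in number 2, against 379.9 and 405 CPM in number 1, a log2 difference of 0.93 (SE 0.11). The mitotic factor FOXM1 was at 232 and 219 CPM in number 2, against 108 and 108 CPM in number 1, a log2 difference of 1.06 (SE 0.10). Cyclins and CDK inhibitors had 5 of 15 tested members in each direction, and 3 lower without the SIX2-labelled library of number 1. CCND2, cyclin D2, was at 8.79 and 10.6 CPM in number 2, against 0 and 0 CPM in number 1, which is at least 101-fold higher; CCND1, cyclin D1, was at 184 and 159 CPM in number 2, against 276 and 274 CPM in number 1, a log2 difference of -0.69 (SE 0.11). CDK6, their kinase partner, was at 229.7 and 184 CPM in number 2, against 398 and 433 CPM in number 1, a log2 difference of -1.01 (SE 0.12). Among cytosolic ribosomal proteins, 15 of 32 tested members were called higher and 2 lower in number 2, with a median log2 difference of 0.32, but the median was 0.07 in the control pair and 0.53 in the SIX2-labelled pair. Without the control library of number 2 the higher count was 27, and these are short genes, for which the length trend inside number 2 given above applies; its part was not tested.

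WNT and Hedgehog genes were more often called higher than lower. For WNT/beta-catenin targets, 7 of 15 tested members were called higher and 3 lower in number 2, with a median log2 difference of 0.56. AXIN2, the feedback scaffold of the pathway, was at 11.1 and 11.8 CPM in number 2, against 0.735 and 0.668 CPM in number 1, a log2 difference of 4.02 (SE 0.29). EPHB2, an ephrin receptor, was at 20.1 and 17.1 CPM in number 2, against 2.81 and 2.31 CPM in number 1, a log2 difference of 2.87 (SE 0.21). NKD2, a Naked cuticle inhibitor, was at 12.98 and 17.2 CPM in number 2, against 2.94 and 2.91 CPM in number 1, a log2 difference of 2.36 (SE 0.22). CD44, the hyaluronan receptor, was lower, at 104 and 109 CPM in number 2, against 215 and 226 CPM in number 1, a log2 difference of -1.05 (SE 0.11). In the Hedgehog list 6 of 9 tested members were called higher and 1 lower; GAS1, a co-receptor, had 23.9 and 23.2 CPM in number 2, against 2.003 and 1.699 CPM in number 1, a log2 difference of 3.67 (SE 0.20). The receptor and target PTCH1 was not called, at 18.1 and 16.1 CPM in number 2, against 19.4 and 24.04 CPM in number 1. PTCH1 was called lower without the control library of number 2, at -0.42. NOTCH genes leaned lower, with 2 of 18 tested called higher and 7 lower: NOTCH3 was at 46.1 and 37.5 CPM in number 2, against 88.5 and 91.7 CPM in number 1, a log2 difference of -1.11 (SE 0.12). Its ligand JAG1 was at 9.27 and 9.63 CPM in number 2, against 21.9 and 20.6 CPM in number 1, a log2 difference of -1.17 (SE 0.16).

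Matrix protease, angiogenic and BCL2 family genes were called lower more often than higher. Of the matrix proteases and inhibitors, 3 of 22 tested members were called higher and 13 lower in number 2, with a median log2 difference of -0.36. MMP14, a membrane-bound collagenase, was at 4.61 and 6.21 CPM in number 2, against 53.1 and 53.5 CPM in number 1, a log2 difference of -3.30 (SE 0.16). TIMP3, an inhibitor bound to matrix, was at 26.02 and 35.8 CPM in number 2, against 122 and 128 CPM in number 1, a log2 difference of -2.02 (SE 0.14). Among angiogenic factors, 3 of 17 tested members were called higher and 10 lower in number 2, with a median log2 difference of -0.54; FGF2 was at 42.2 and 57.9 CPM in number 2, against 149 and 158 CPM in number 1, a log2 difference of -1.61 (SE 0.14). VEGFA was at 105 and 105 CPM in number 2, against 150.3 and 137 CPM in number 1, a log2 difference of -0.45 (SE 0.11). The call of VEGFA was lost without the control library of number 1, at -0.39. In the BCL2 family, 2 of 15 tested members were called higher and 9 lower in number 2, with a median log2 difference of -0.48. BCL2L1, which encodes BCL-XL, was at 36.96 and 46.8 CPM in number 2, against 129.8 and 111 CPM in number 1, a log2 difference of -1.52 (SE 0.13). BOK, a pore-forming member, was at 7.42 and 6.28 CPM in number 2, against 63.4 and 59.8 CPM in number 1, a log2 difference of -3.17 (SE 0.14). Heat shock genes had 1 of 17 tested called higher and 9 lower; HSPB1 was at 190.4 and 194 CPM in number 2, against 450.2 and 394 CPM in number 1, a log2 difference of -1.13 (SE 0.11). Mesenchymal genes were split, 4 higher and 8 lower of 18, or 7 higher without the control library of number 2. The repressor ZEB1 was at 22.2 and 21.6 CPM in number 2, against 47.2 and 50.01 CPM in number 1, a log2 difference of -1.15 (SE 0.12). Fibronectin, FN1, was at 303 and 479 CPM in number 2, against 581 and 637 CPM in number 1, a log2 difference of -0.64 (SE 0.17). DESeq2 did not call FN1, at -0.63.

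**Figure D2:**
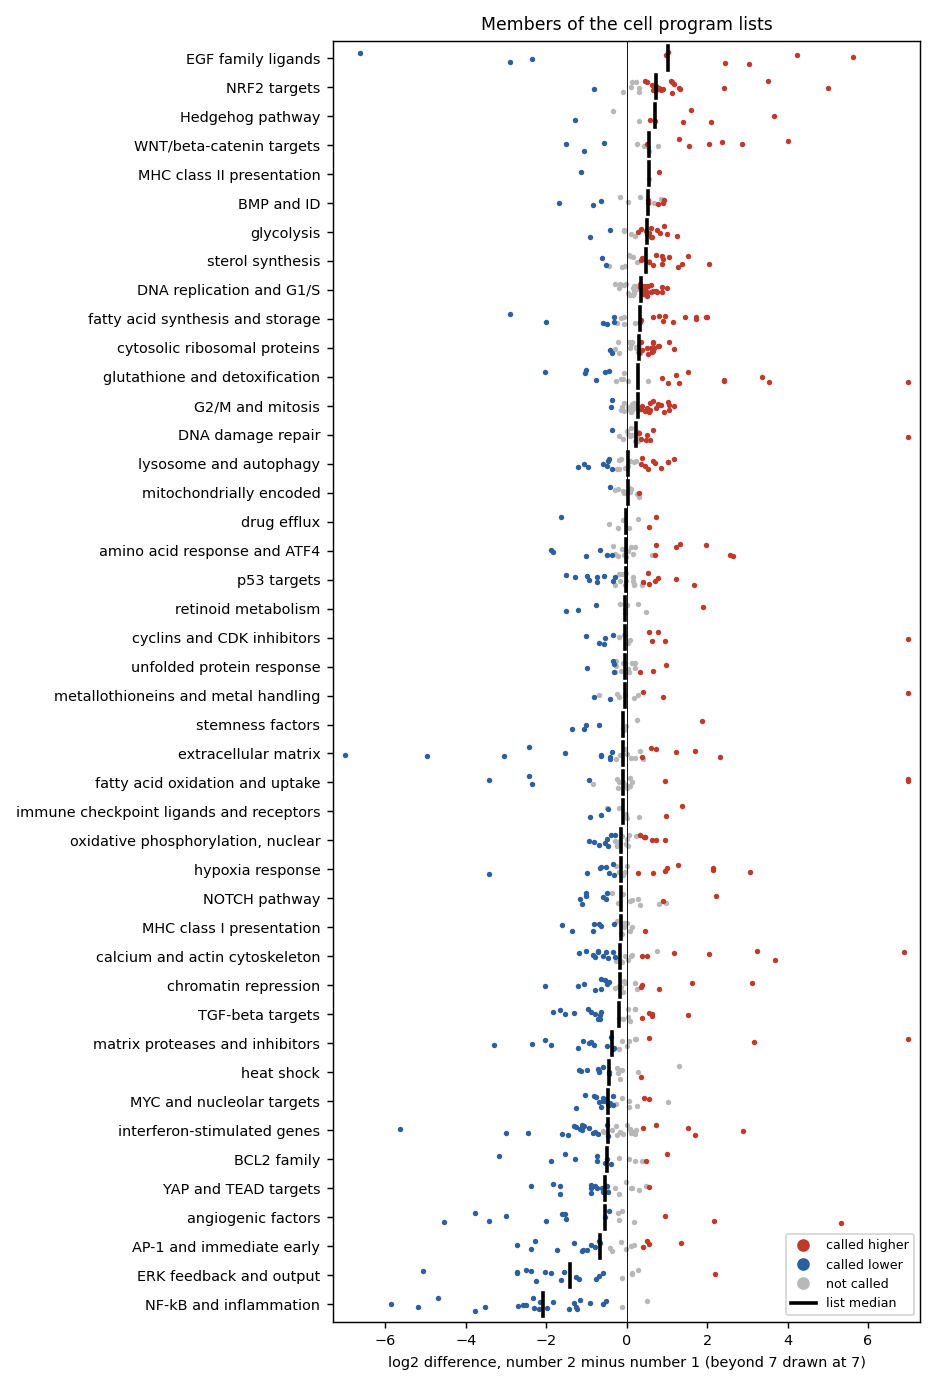
Log2 difference, number 2 minus number 1, of each tested member of the 44 cell program lists, ordered by list median. Red points are members called higher in number 2, blue lower, grey not called; the black bar is the list median, -2.07 for the inflammatory list at the bottom and 1.02 for EGF family ligands at the top.

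Among 813 transcription factor genes, defined by family names, 546 were tested, of which 112 were called higher and 177 lower in number 2; past 2-fold these were 62 and 74. Their median log2 difference was -0.09, beside 0.01 for all tested genes. Genes described here come from the 12 with the largest difference in each direction at 5 CPM or more in the higher set, or are changed members of a described family. GATA4, an endodermal and cardiac factor, was at 23.03 and 20.98 CPM in number 2, against 0.735 and 0.546 CPM in number 1, a log2 difference of 5.09 (SE 0.25). HOXD9, a posterior HOX gene, was at 5.32 and 6.72 CPM in number 2, against 0.0668 and 0.303 CPM in number 1, a log2 difference of 4.93 (SE 0.48). Of its family, 2 of 27 tested HOX genes were called higher and 12 lower; HOXC13 was at 12.98 and 17.9 CPM in number 2, against 45.95 and 42.1 CPM in number 1, a log2 difference of -1.51 (SE 0.16). The forkhead factor FOXF1, known from gut mesenchyme, was at 45.5 and 49.4 CPM in number 2, against 13.3 and 14.4 CPM in number 1, a log2 difference of 1.78 (SE 0.13). Of the forkhead family 10 of 30 tested genes were called higher and 8 lower. Of those called lower, FOXE1, a thyroid and foregut factor, had 12.6 and 12.7 CPM in number 2, against 62.8 and 59.7 CPM in number 1, a log2 difference of -2.28 (SE 0.13). FOXO1, which insulin signalling holds back, had 6.100 and 3.23 CPM in number 2, against 21.8 and 23.9 CPM in number 1, a log2 difference of -2.28 (SE 0.23). SALL4, a zinc finger of early embryos, was at 26.5 and 27.4 CPM in number 2, against 7.68 and 7.16 CPM in number 1, a log2 difference of 1.86 (SE 0.16). KLF9 had 5.38 and 5.07 CPM in number 2, against 1.14 and 0.668 CPM in number 1, a log2 difference of 2.54 (SE 0.35). KLF7 had 13.2 and 9.95 CPM in number 2, against 2.34 and 2.003 CPM in number 1, a log2 difference of 2.42 (SE 0.25). PBX3, a HOX cofactor, was at 13.9 and 12.4 CPM in number 2, against 4.14 and 3.702 CPM in number 1, a log2 difference of 1.74 (SE 0.20).

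On the lower side, TOX3, an HMG box factor, had 1 count in number 2 and 430 in number 1, 444 times as much in number 1 (95% counting interval 79.3 to 17590). HES5, a NOTCH-induced repressor, was at 0.598 and 0.254 CPM in number 2, against 8.55 and 7.53 CPM in number 1, a log2 difference of -4.20 (SE 0.37). IRX3, an Iroquois homeobox gene, was at 8.49 and 9.89 CPM in number 2, against 61.3 and 58.7 CPM in number 1, a log2 difference of -2.71 (SE 0.14). The eye and endocrine factor PAX6 was at 5.203 and 5.64 CPM in number 2, against 19.2 and 18.4 CPM in number 1, a log2 difference of -1.79 (SE 0.18). GRHL1, a grainyhead factor of epithelial barriers, was at 2.09 and 2.92 CPM in number 2, against 12.3 and 12.6 CPM in number 1, a log2 difference of -2.31 (SE 0.23). ZBTB32 was at 0.837 and 1.27 CPM in number 2, against 7.75 and 8.01 CPM in number 1, a log2 difference of -2.90 (SE 0.30). In each of these transcription factor genes both libraries of one number lay above both of the other, which the naming rule requires. Further leaders on the higher side were THAP10, ZBTB18, TSHZ2 and POU6F1, with log2 differences between 1.72 and 2.05; TSHZ2 overlaps 7 other annotated genes. Nuclear receptors had 5 of 35 tested called higher and 8 lower; the higher count was 2 without either library of number 1 and 8 without the SIX2-labelled library of number 2. NR2F1, an orphan receptor, was at 63.5 and 61.4 CPM in number 2, against 29.6 and 29.7 CPM in number 1, a log2 difference of 1.07 (SE 0.11). RXRA, the retinoid X partner, was at 116 and 96.8 CPM in number 2, against 259.9 and 231 CPM in number 1, a log2 difference of -1.21 (SE 0.12).

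**Figure D3:**
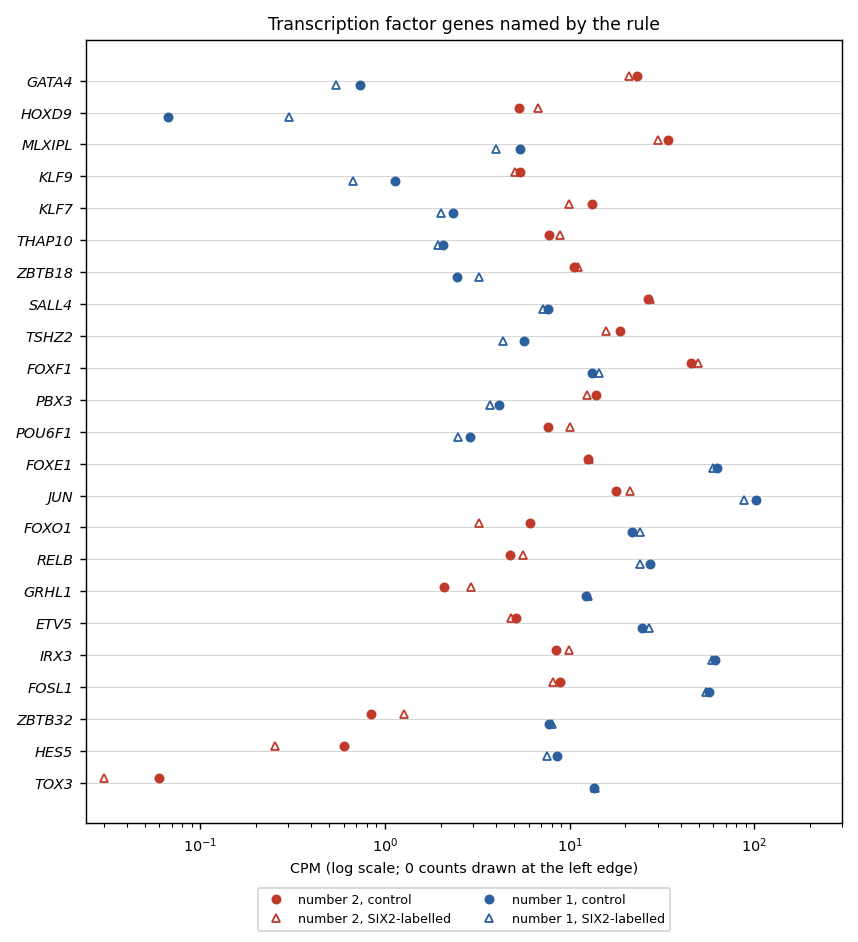
CPM on a log axis in each library for transcription factor genes named by size of difference; red is number 2, blue number 1, filled circles control and open triangles SIX2-labelled libraries, with 0 counts drawn at the left edge. GATA4 tops the genes higher in number 2 and TOX3 lies at the foot, with 1 count in number 2.

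Of 1664 surface genes, defined the same way, 822 were tested; 233 were called higher and 256 lower in number 2, and 151 and 132 of them were past 2-fold. The strongest differences were genes with 0 or 1 count in one of the sets. ADAM12, a membrane metalloprotease, had 65.7 and 53.9 CPM in number 2, against 0 and 0 CPM in number 1, at least 629-fold higher. LRRN2, a leucine-rich neuronal protein, stood at 19.3 and 20.5 CPM in number 2, against 0 and 0 CPM in number 1, at least 209-fold higher. CACNA2D1, an auxiliary calcium channel subunit, had 16.1 and 14.3 CPM in number 2, against 0 and 0 CPM in number 1, at least 159.7-fold higher. SDC2 (a syndecan), S1PR3 (a sphingosine phosphate receptor) and ANO4 (an anoctamin) also had 0 counts in number 1, and were at least 108-fold, at least 78.7-fold and at least 79.7-fold higher in number 2. Adhesion molecules of the immunoglobulin superfamily parted the sets in both directions. CADM1, a cell adhesion molecule, had 839 counts in number 2 and 1 in number 1, and CHL1, a relative of L1, was at 21.3 and 20.5 CPM in number 2, against 0.2004 and 0.0607 CPM in number 1, a log2 difference of 7.27 (SE 0.34). IGSF9B, a synaptic adhesion protein, had 2 counts in number 2 and 491 in number 1; CEACAM7 was at 0.1196 and 0.317 CPM in number 2, against 7.28 and 9.104 CPM in number 1, a log2 difference of -5.20 (SE 0.42).

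Ion channel genes were called higher more often than lower: of 57 tested calcium, sodium, chloride and TRP channel genes, 30 were called higher and 7 lower in number 2, 24 and 3 of them past 2-fold, with a median log2 difference of 0.73. ANO3, an anoctamin, was at 18 and 18.6 CPM in number 2, against 0.401 and 0.364 CPM in number 1, a log2 difference of 5.55 (SE 0.28). CACNB2, a calcium channel beta subunit, was at 27.9 and 23.4 CPM in number 2, against 2.404 and 1.46 CPM in number 1, a log2 difference of 3.74 (SE 0.23). The family pattern also took in AQP3, a water and glycerol channel, at 235 and 277 CPM in number 2, against 161 and 148 CPM in number 1, a log2 difference of 0.73 (SE 0.12). Neurotransmitter-gated channels had 9 of 22 tested called higher and 2 lower; the GABA receptor subunit GABRE was at 324 and 245 CPM in number 2, against 113 and 119.8 CPM in number 1, a log2 difference of 1.29 (SE 0.13). Scavenger and lipoprotein receptor relatives had 11 of 22 called higher and 2 lower. LRP4, a receptor of the neuromuscular junction, was at 10.3 and 9.76 CPM in number 2, against 0.0668 and 0.486 CPM in number 1, a log2 difference of 5.10 (SE 0.42). VLDLR was at 17.2 and 21.6 CPM in number 2, against 3.54 and 2.67 CPM in number 1, a log2 difference of 2.64 (SE 0.22). The abundant LRP1, an endocytic receptor, was at 376 and 254 CPM in number 2, against 184 and 177 CPM in number 1, a log2 difference of 0.80 (SE 0.15). Potassium channels had no such lean, with 8 of 32 called higher and 7 lower.

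Adhesion families with more calls on the lower side were integrins and cadherins. Of 12 tested integrin genes 2 were called higher and 8 lower, and the lower count was 5 without the control library of number 1. ITGA1, a collagen receptor chain, was at 34.2 and 37.9 CPM in number 2, against 252 and 279 CPM in number 1, a log2 difference of -2.88 (SE 0.12). ITGA5, the fibronectin receptor chain, was at 149 and 178 CPM in number 2, against 339.9 and 337 CPM in number 1, a log2 difference of -1.05 (SE 0.12). ITGB5 was higher, at 303 and 323 CPM in number 2, against 128 and 119 CPM in number 1, a log2 difference of 1.34 (SE 0.11). Of 27 tested cadherins 6 were called higher and 13 lower. CDH18 had 0 counts in number 2, against 7.28 CPM in each library of number 1, at least 78.9-fold lower, and its neighbour in the family CDH10 had 1 count in number 2 and 247 in number 1. DSG2, a desmosomal cadherin and the most abundant of the lower ones named, was at 223 and 191 CPM in number 2, against 401 and 432 CPM in number 1, a log2 difference of -1.01 (SE 0.11). CLDN1, a tight junction claudin, was at 5.26 and 5.45 CPM in number 2, against 66.8 and 74.5 CPM in number 1, a log2 difference of -3.72 (SE 0.14).

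Receptors and transporters had calls in both directions. Among 96 tested G protein-coupled receptors 23 were called higher and 31 lower; P2RY6, a nucleotide receptor, was at 36.9 and 34.9 CPM in number 2, against 2.27 and 2.91 CPM in number 1, a log2 difference of 3.78 (SE 0.18). NTSR1, the neurotensin receptor, was at 2.57 and 1.58 CPM in number 2, against 35.8 and 31.4 CPM in number 1, a log2 difference of -4.00 (SE 0.21). C5AR2, a complement receptor, was at 0.718 and 0.697 CPM in number 2, against 27.1 and 25.6 CPM in number 1, a log2 difference of -5.20 (SE 0.23). Receptor tyrosine kinases had 11 of 36 in each direction, and 6 lower without the control library of number 1. IL20RB, a chain of interleukin receptors, was at 4.37 and 6.21 CPM in number 2, against 88.9 and 83.8 CPM in number 1, a log2 difference of -4.03 (SE 0.16). OSMR, the oncostatin M receptor, was at 129 and 121 CPM in number 2, against 284 and 320.2 CPM in number 1, a log2 difference of -1.28 (SE 0.11). LIFR, its relative, was called higher, at 564 and 414 CPM in number 2, against 344 and 372 CPM in number 1, a log2 difference of 0.45 (SE 0.14). LIFR was not called without the control library of number 1, at 0.39, or without its SIX2-labelled library, at 0.50. Of 164 solute carriers 39 were called higher and 63 lower. SLC1A3, a glutamate transporter, was at 37.4 and 38.7 CPM in number 2, against 0.134 and 0.546 CPM in number 1, a log2 difference of 6.74 (SE 0.29). SLCO2A1, a prostaglandin carrier, was at 9.87 and 12.6 CPM in number 2, against 0.534 and 0.546 CPM in number 1, a log2 difference of 4.35 (SE 0.32). SLC22A31 was at 3.41 and 2.22 CPM in number 2, against 72.7 and 57.05 CPM in number 1, a log2 difference of -4.52 (SE 0.20). The large neutral amino acid carrier SLC7A5 was abundant and close between sets, at 1642 and 1487 CPM in number 2, against 1655 and 1613 CPM in number 1. ANPEP, the membrane aminopeptidase CD13, was at 1.73 and 2.22 CPM in number 2, against 45.4 and 44.98 CPM in number 1, a log2 difference of -4.51 (SE 0.18). MUC15, a membrane mucin, had 321 counts in number 2 and 1 in number 1.

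**Figure D4:**
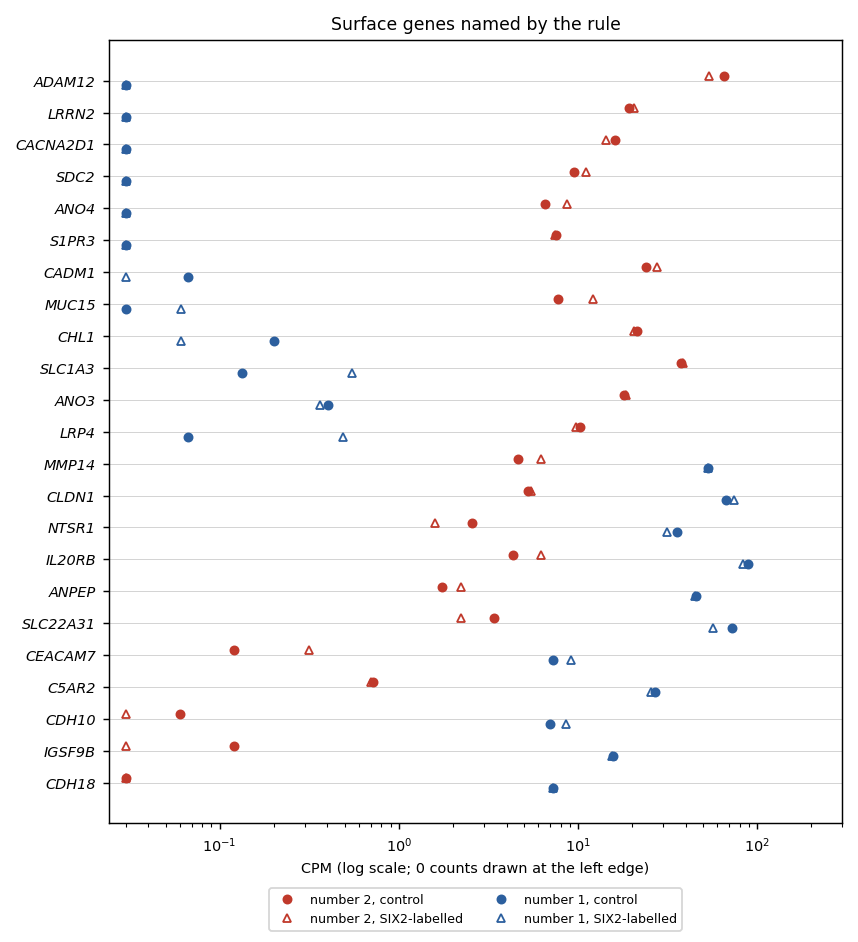
CPM on a log axis in each library for surface genes named by size of difference; red is number 2, blue number 1, filled circles control and open triangles SIX2-labelled libraries, with 0 counts drawn at the left edge. The 6 genes at the top had 0 counts in both libraries of number 1, and CDH18 at the foot had 0 in both of number 2.

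Presence and absence were uneven between the sets. At 1 CPM or more in both libraries of a set and 0 counts in the other, 77 protein-coding genes were found in number 2 and 13 in number 1; a set of 2 libraries with 0 counts allows up to 3 counts, or 0.0923 CPM in number 2 and 0.0954 CPM in number 1, for counting error alone. Of the 77, 4 were transcription factor genes and 16 surface genes; of the 13, 0 and 4 were. Of the 4 factors, 3 are named here after their values were seen, SOX17 (an endodermal and endothelial factor) at 5.08 and 4.501 CPM in number 2, FOXP1 (a forkhead) at 2.51 and 4.44 CPM and ISL1 (a LIM homeobox factor) at 2.75 and 2.98 CPM. For scale, the 19951 protein-coding genes listed held 813 transcription factor and 1664 surface genes. Of these 77 genes 8 lay on the X chromosome and 8 on chromosome 3. The 16343 tested genes, noncoding ones included, held 528 on X and 894 on chromosome 3. Whether any class or chromosome was over-represented among the 77 was not tested.

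Differences also followed position in the genome. On chromosome 14, 259 of 518 tested genes were called higher and 25 lower in number 2, with a median log2 difference of 0.49; on X the called shares were 44.5% and 10.6% of 528 genes, with a median of 0.35. On chromosome 20, 9.82% of 438 genes were called higher and 43.2% lower, with a median of -0.37, and on chromosome 13 the shares were 14.4% and 37.6% of 271, with a median of -0.25. Both pairs of libraries gave these medians alike: on chromosome 14 the control pair had 0.50 and the SIX2-labelled pair 0.49, and on chromosome 20 they had -0.38 and -0.39. In windows of 41 neighbouring tested protein-coding genes, the highest median lay on X from KLF8 to RPS4X (56232421 to 72302926, GRCh38), at 0.99 (35 of 41 called higher and 1 lower; control pair 1.01, SIX2-labelled pair 1.04). The lowest lay on chromosome 13 from WDFY2 to DNAJC3 (51584455 to 95794989), at -0.88 (2 of 41 called higher and 31 lower; control pair -0.83, SIX2-labelled pair -0.98). Another low window lay on chromosome 20 from PI3 to CEBPB (45174876 to 50192689), at -0.78 (1 of 41 called higher and 32 lower; control pair -0.87, SIX2-labelled pair -0.77). Of the genes described above, SPRY2 lies inside the window on chromosome 13. On chromosome 11, FOSL1 lies inside a low window from 65261928 to 66345125, at -0.71. CCND1 and GSTP1 lie inside another there, from 67491768 to 72434680, at -0.71. NOTCH3 lies inside a low window on chromosome 19 (13150415 to 16192046, at -0.71). NFAT5 opens one on chromosome 16 (69565094 to 75268053, at -0.72). High windows also lay on chromosome 10 (96129715 to 100965136, at 0.73), on chromosome 15 (65578753 to 72376476, at 0.80) and on chromosomes 14 and 17. Described genes are placed here in low windows only. Those inside high windows are not listed, and the genes named here are not a full list. POLA1 on X and BCL2L1 on chromosome 20 lie outside the windows given. When each chromosome's median was subtracted, the NF-kB list had a median of -1.98, the ERK output list -1.40, NRF2 targets 0.82 and sterol synthesis 0.51. Other lists changed more. Of the medians of the 65 described lists and families, 24 were counted as moved, 4 as reversed in sign and 37 as the same. BMP and ID genes went from 0.52 to 0.28, and TGF-beta targets from -0.19 to -0.33. DNA copy number was not measured, and its part in these stretches was not tested.

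**Figure D5:**
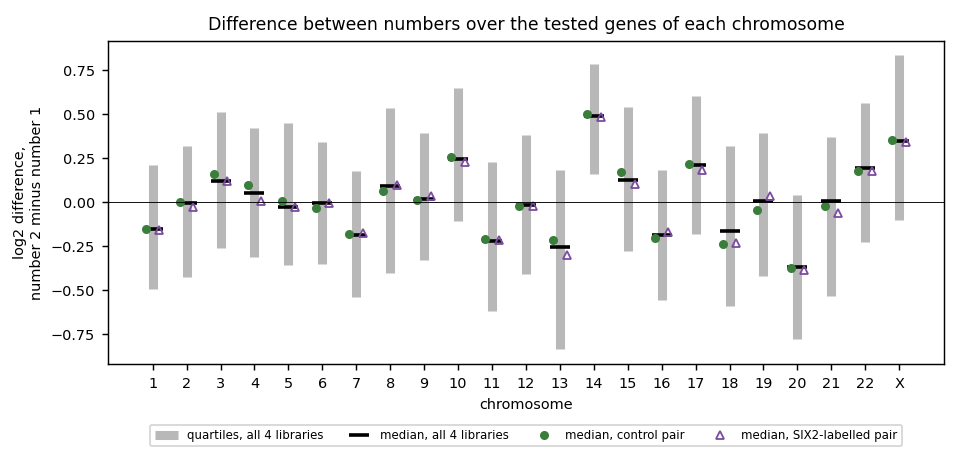
Median log2 difference, number 2 minus number 1, over the tested genes of each chromosome; black bars are medians of the fit over all 4 libraries, grey bars run between the quartiles over genes, green circles are the control pair and open purple triangles the SIX2-labelled pair. Chromosome 14 lies highest at 0.49 and chromosome 20 lowest at -0.37.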

How the data were processed

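Per the labels' protocols, RNA for the 4 libraries was taken up in Trizol, an Illumina TruSeq kit made the libraries, and a NovaSeq instrument read them. The authors deposited raw counts per gene, per the file headers. Aligner, counter and strand: not given in the sources used here. Although the submitters' processing notes name the build mm9, gene identifiers and coordinates of the files are those of human GRCh38, and 58690 of 58735 genes have the coordinates of GENCODE 29. Reads of overlapping, antisense or near-identical genes may be shared between them.

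Differences between numbers were fitted with edgeR 4.0.16 (R 4.3.3): filterByExpr left 16343 genes, library sizes were scaled by TMM, and glmQLFTest with the number as the only term gave calls at a Benjamini-Hochberg adjusted p under 0.05 over all tested genes, with 2 residual degrees of freedom per gene. The biological coefficient of variation was 9.78%. Log2 differences are number 2 minus number 1, with SE. SE here is the absolute log2 difference divided by the square root of the quasi-likelihood F statistic. It is approximate, and for genes with few counts in a set it can be smaller than counting error alone. CPM gives a gene's counts in 1000000 counts after that scaling, and pair differences used log2 CPM with 0.5 prior counts. A set at 0 counts was given 3 counts over both libraries as a floor; ratios with 1 to 3 counts have exact intervals at 95%. Floors and intervals cover counting error only. The steps were tested on simulated data.

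The contrast, its members and the 64 gene lists were chosen with earlier results of these data known. Transcription factor and surface families were defined by name patterns, from which false matches were removed after the data were seen, and the 65 lists and families described were chosen after their values were seen. Named genes were SIX2, features of the labelled line and cell type markers; the 12 transcription factor and 12 surface genes per direction with the largest called difference, at a mean of 5 CPM or more in the higher set and with no overlap between sets; and, per described list, up to 4 called members of largest difference at that level and up to 2 most abundant members. Any other gene is marked as chosen after its values were seen, and a few genes that the rule names are not reported here. Promoters came from RefSeq (GRCh38.p14), and 10213 tested protein-coding genes had a window.

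Alternatives were DESeq2 1.42.0, DESeq2 size factors, no filter beyond 1 count, the virus label as a replicate block, a 2-fold minimum and each library left out. A transcription factor definition from the deposited annotation column and subtraction of chromosome medians were added after seeing the data.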

Additional observations from a re-analysis of the deposited data

Results flagged for a closer look

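For the 6 lists and 20 genes given here the difference between number 2 and number 1 ran opposite ways in the control pair and in the SIX2-labelled pair. That difference between pairs was not tested, and each pair is 1 library a side. The Spearman correlation with exonic gene length given above was 0.15 in the control pair and -0.12 in the SIX2-labelled pair. The part of gene length in these opposite signs was not tested.

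Lists with medians near 0 made up the first group. The median log2 difference of cyclins and CDK inhibitors was 0.16 in the SIX2-labelled pair and -0.10 in the control pair. That of p53 targets was 0.046 in the SIX2-labelled pair and -0.075 in the control pair. The amino acid response and ATF4 list had -0.083 in the SIX2-labelled pair and 0.0017 in the control pair. Homeobox genes outside the named homeobox families had 0.057 in the SIX2-labelled pair and -0.15 in the control pair. Receptor tyrosine kinases had -0.086 in the SIX2-labelled pair and 0.051 in the control pair, and adhesion genes of the immunoglobulin superfamily had 0.063 in the SIX2-labelled pair and -0.021 in the control pair.

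Single genes followed with wider gaps. The antiviral modifier ISG15 had a log2 difference of 0.039 in the SIX2-labelled pair and -1.52 in the control pair. The gastric mucin MUC5AC had -1.08 in the SIX2-labelled pair and 0.25 in the control pair, and the keratin KRT17 had 1.12 in the SIX2-labelled pair and -0.089 in the control pair. KRT17, not called over all 4 libraries, was called higher with the virus label as a replicate block, at 0.51, with no filter, at 0.63, without either library of number 1, at 0.65 and 0.58, and without the control library of number 2, at 1.10. The class I light chain B2M had 0.29 in the SIX2-labelled pair and -0.33 in the control pair, and the tetraspanin CD63 had 0.27 in the SIX2-labelled pair and -0.23 in the control pair. Among transcription factors, CUX1 had -0.18 in the SIX2-labelled pair and 0.50 in the control pair, BBX had -0.29 in the SIX2-labelled pair and 0.23 in the control pair, MGA had -0.63 in the SIX2-labelled pair and 0.0016 in the control pair, and SP1 had -0.30 in the SIX2-labelled pair and 0.044 in the control pair. The deacetylase HDAC1 had 0.0015 in the SIX2-labelled pair and -0.070 in the control pair.

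Surface genes of this kind were MET, with -0.15 in the SIX2-labelled pair and 0.15 in the control pair, ADAM9, with -0.13 in the SIX2-labelled pair and 0.14 in the control pair, and the integrin chain ITGB1, with -0.06 in the SIX2-labelled pair and 0.21 in the control pair. The mechanosensitive channel PIEZO1 had -0.015 in the SIX2-labelled pair and 0.28 in the control pair, the phosphatase PTPRF had -0.32 in the SIX2-labelled pair and 0.051 in the control pair, and the amino acid carrier chain SLC3A2 had 0.19 in the SIX2-labelled pair and -0.11 in the control pair. The enzymes ACADVL and ENO1 had 0.19 and 0.045 in the SIX2-labelled pair, against -0.012 and -0.17 in the control pair. The ribosomal gene RPS2 had 0.25 in the SIX2-labelled pair and -0.12 in the control pair, and the cancer testis gene PAGE1 had 0.16 in the SIX2-labelled pair and -0.11 in the control pair.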

How the results depend on the processing

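Of 16343 genes, 3622 were called higher and 3529 lower in number 2; DESeq2 called 2926 and 2731, DESeq2 size factors 3643 and 3481, and no filter 3876 and 3634. The virus label served as a replicate block, since the replicates of a set share only that label across sets: it gave 3499 and 3456 genes, 112 and 181 transcription factor genes, and 227 and 255 surface genes. Leaving out each library in turn gave 2485 to 4326 genes higher and 2355 to 4090 lower, 80 to 138 and 138 to 202 transcription factor genes, and 194 to 262 and 199 to 283 surface genes; the lone library left in a set was then assumed to vary like the others. Calls of at least 2-fold, a smaller set by construction, were 1455 and 1214 genes, 62 and 74 transcription factor genes, and 151 and 132 surface genes. The deposited annotation column, a wider definition, gave 187 and 318 transcription factor genes. With chromosome medians subtracted, the median was 0.042 for cyclins and CDK inhibitors, -0.048 for germ cell and cancer testis genes, 0.0077 for forkheads and 0.027 for other homeobox genes, each opposite in sign to the fit over all libraries; the cause was not tested. With each library left out, values also changed sign: B2M spanned -0.35 to 0.32, ATF4 targets -0.12 to 0.079, cyclins and CDK inhibitors -0.14 to 0.076, other homeobox genes -0.15 to 0.042, p53 targets -0.080 to 0.13, receptor tyrosine kinases -0.090 to 0.036 and the immunoglobulin superfamily -0.030 to 0.037. Among 363 named genes with an alternative fit, 85 of 2904 alternative values lost the call, 48 gained it and 1 reversed. Genes near the floor of 3 counts have folds that are bounds only.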
